A study of Mus musculus with 23 samples.

Results

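Imprinted growth genes are genes that are read mainly from the allele of a single parent and that set how much embryonic tissue is made. The set described here holds 10 of them, H19, Igf2, Cdkn1c, Dlk1, Meg3, Peg3, Plagl1, Grb10, Mest and Peg10. They were taken by symbol, as imprinted genes abundant in embryonic mesenchyme, from the 34682 rows of the deposited comparison of Inv1DelCTCF with Inv1. The other 4 deposited tables, which set inversions against wild type, list genes of the Epha4 neighbourhood and hold 0 of the 10. All results here therefore concern a single contrast of distal forelimbs dissected at embryonic stage E11.5. Inv1DelCTCF is represented by 2 libraries and Inv1 by 3, and both groups carry Inv1, an inversion made with CRISPR/Cas9 that puts the Epha4 enhancer cluster into a gene-dense region. Inv1DelCTCF, by its name, also lacks a CTCF binding site. Every library, limb libraries included, has the cell type entry G4 ESC, and the genotype entry of both groups is mutant without further detail. In the table the stem cell genes Pou5f1, Nanog and Zfp42 had means of at most 23.1 normalised counts, low beside the limb gene Prrx1 at 25893. No label says whether a line goes back to a single cell clone.

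Genomic imprinting marks an allele by DNA methylation laid down in the egg or the sperm, and the mark is kept in the embryo. Among the 10 genes, Igf2, Dlk1, Peg3, Plagl1, Mest and Peg10 are known as paternally expressed in mouse embryos, and H19, Cdkn1c, Meg3 and Grb10 as maternally expressed in most tissues. In broad terms the paternally expressed growth genes favour growth and the maternally expressed ones restrain it. H19 and Meg3 are long noncoding RNAs, each sharing a region with a protein-coding partner read from the opposite parental allele, Igf2 and Dlk1. In the GRCm38 annotation H19, Igf2, Cdkn1c and Peg3 lie on chromosome 7, Mest and Peg10 on 6, Dlk1 and Meg3 on 12, Plagl1 on 10 and Grb10 on 11, all away from Epha4 on chromosome 1. Limb mesenchyme at this stage proliferates strongly, and several of these genes are known to be abundant in it.

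Of the 10 genes, 9 had a mean count above 0 and an adjusted p. Plagl1 rose in Inv1DelCTCF relative to Inv1, Igf2, Grb10 and Peg10 fell, and Cdkn1c, Dlk1, Meg3, Peg3 and Mest did not pass an adjusted p of 0.05 in the authors' DESeq2 Wald test. The rise of Plagl1 was 1.49-fold and the 3 falls left 0.834 to 0.898 of the Inv1 level in the authors' deposited table. H19 was listed at 0. These counts, 1 higher and 3 lower of 9, stand beside 3.81% higher and 7.89% lower over the 11218 genes with an adjusted p. All 9 had a mean of at least 2000, and of the 3982 genes at that level 4.82% were called higher and 14.0% lower. With a set this small no more is read from these shares. The median log2 change of the 9 was -0.07, against -0.01 over all genes tested, and 5 of the 9 had an unadjusted p under 0.05, against 26.1% of all genes tested. Meg3 and Plagl1 had an absolute log2 change of at least 0.5, a size reached by 3.08% of all genes tested, and Plagl1 was also called, as were 1.55% of all genes tested at that size. None of the 4 calls held when the SE were widened until the median gene behaved as an unchanged one, with adjusted p = 0.692 for Plagl1. In such bulk samples fewer cells of a type and less RNA per cell cannot be told apart.

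Before the single genes, 4 stretches of DNA are printed because they lie just upstream of the start sites of Plagl1, of Igf2 and Grb10, and of Meg3, which are 3 of the 4 called members and the member with the widest interval. Peg10, the other called member, has no window in the RefSeq table used here. RefSeq start sites on GRCm38.p6 were found for 7 of the 10 genes, with 14 windows of 250 bases in all, and for each of the 4 genes the window with the most CpG pairs is shown, 5′ to 3′ on the gene's strand. Capitals mark GGGGCC or its reverse complement GGCCCC, the core of the sequence that the Plagl1 protein is known to bind.
Plagl1, chr10:13090582-13090831, plus strand: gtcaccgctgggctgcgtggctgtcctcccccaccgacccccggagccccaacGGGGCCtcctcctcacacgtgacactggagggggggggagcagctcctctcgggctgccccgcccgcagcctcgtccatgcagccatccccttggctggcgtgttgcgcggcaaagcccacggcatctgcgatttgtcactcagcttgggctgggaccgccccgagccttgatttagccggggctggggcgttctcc
Igf2, chr7:142658805-142659054, minus strand: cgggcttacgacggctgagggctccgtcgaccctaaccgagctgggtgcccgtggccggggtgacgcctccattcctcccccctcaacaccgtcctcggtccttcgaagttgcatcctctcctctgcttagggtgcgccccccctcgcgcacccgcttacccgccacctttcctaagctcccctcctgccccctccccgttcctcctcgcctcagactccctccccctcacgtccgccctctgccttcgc
Grb10, chr11:12037421-12037670, minus strand: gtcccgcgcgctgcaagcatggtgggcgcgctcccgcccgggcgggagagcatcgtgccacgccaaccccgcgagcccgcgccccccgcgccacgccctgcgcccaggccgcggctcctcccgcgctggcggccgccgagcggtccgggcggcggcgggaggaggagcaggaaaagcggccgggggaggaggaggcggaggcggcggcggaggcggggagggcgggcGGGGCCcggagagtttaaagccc
Meg3, chr12:109540746-109540995, plus strand: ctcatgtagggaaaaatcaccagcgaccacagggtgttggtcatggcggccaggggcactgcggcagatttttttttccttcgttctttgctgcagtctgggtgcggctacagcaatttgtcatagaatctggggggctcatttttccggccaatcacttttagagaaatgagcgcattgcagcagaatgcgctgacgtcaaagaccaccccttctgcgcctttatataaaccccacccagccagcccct
The Grb10 window held 40 CpG pairs, the Igf2 window 22, the Plagl1 window 19 and the Meg3 window 10. The median over all 32851 RefSeq windows of this length was 6, but those were not picked by CpG count as the printed ones were. The windows not printed held 1, 10 and 6 CpG pairs for Igf2, 8 for Grb10 and 0 for Meg3, while Plagl1 had no other window. No excess of CpG pairs is therefore read from the printed windows. The searched letters occurred on either strand in 8 of the 14 windows of these genes and in 22.0% of all windows. These letters are G and C only, and the 2 shares are not matched for GC content. The printed windows of Grb10, Plagl1, Igf2 and Meg3 had 81.2%, 70.4%, 68.8% and 52.4% GC, against a median of 52.4% over all windows. The choice by CpG count bears on these GC values too. The 14 windows are not independent, since 2 of the 3 Mest windows overlap almost wholly. The letters were present in the Plagl1 and Grb10 windows above and not in the Igf2 and Meg3 windows, although another 2 of the 4 Igf2 windows held them. A match is a description of the letters and not a binding site.

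The files hold no value per library, so each group is given below by a level rebuilt from the authors' mean normalised count over the 5 libraries and their fold change. Whether single libraries of the groups overlap cannot be read from the files. Intervals are 95% intervals of the estimated fold change from the authors' standard errors (SE) and reflect only how these libraries vary. They are not the range of the single libraries. In every sentence a log2 change is Inv1DelCTCF over Inv1, and the sign of the authors' column was turned accordingly.

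**Figure D1:**
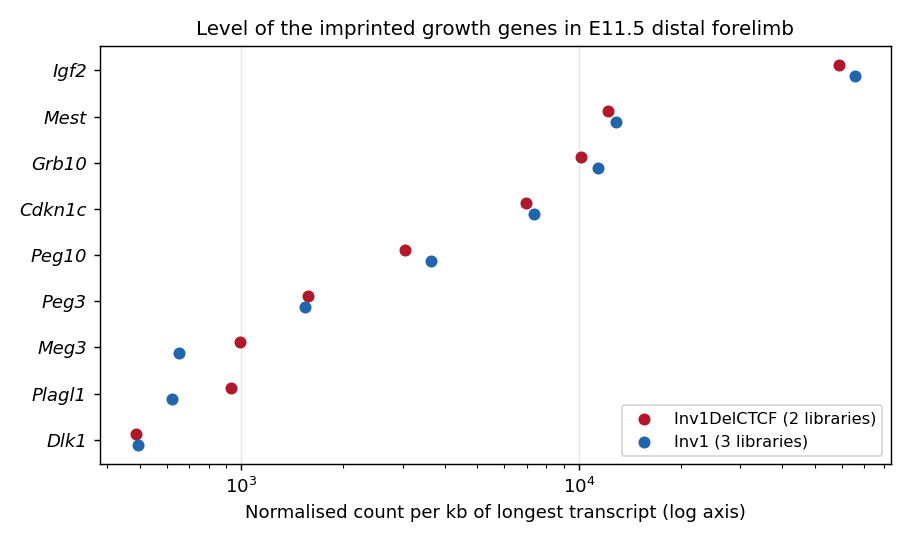
Levels of the 9 genes with a mean above 0, in normalised counts per kb of the longest annotated transcript on a log axis, rebuilt for Inv1DelCTCF (2 libraries) and Inv1 (3 libraries). Igf2 lies 2.32 log2 units above the next gene, and the distance between the groups is widest for Meg3 and Plagl1.

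Igf2 had the largest mean count of the whole table. Igf2 encodes insulin-like growth factor 2, the main fetal growth factor of this family, and its mean of 296665 normalised counts was 0.982% of the summed means of all rows. Per kb of transcript its mean was 62826 normalised counts, against 12568 for Mest, the next gene. Grb10 followed at 10870, Cdkn1c at 7200, Peg10 at 3409, Peg3 at 1558, Meg3 at 788, Plagl1 at 748 and Dlk1 at 490 normalised counts per kb. With the spread between libraries implied by the SE, Meg3 and Plagl1 were the only neighbours in this order whose mean levels did not differ beyond that spread (ratio 1.05). The lower part of the order depends on transcript length. With the mean length of a gene's annotated transcripts in place of the longest, Meg3 (4239) and Plagl1 (4015) stood above Peg10 (3427) and Peg3 (3098) per kb.

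Igf2 was lower in Inv1DelCTCF, with the smallest change of the 4 called members. Its rebuilt level was 277765 normalised counts in Inv1DelCTCF, against 309265 in Inv1. In the authors' deposited table this is a fold of 0.898, with an interval of 0.833 to 0.969, a log2 change of -0.15, an SE of 0.056 and an adjusted p of 0.0476. The call lies just inside the threshold, and it was lost when the adjustment ran over every row with a p (adjusted p = 0.0904) or over genes with a mean of at least 10 (0.0626), and when changes were centred on the median gene (0.0799). Subtracting the trend of log2 changes with transcript GC content and length, described below, left Igf2 at -0.02 (adjusted p = 0.894). Dlk1, the other ligand-like member, encodes a transmembrane protein of the Notch ligand family that holds precursor cells undifferentiated. Dlk1 had a rebuilt level of 2259 normalised counts in Inv1DelCTCF, against 2290 in Inv1, and its fold of 0.986 in the authors' deposited table had an interval of 0.858 to 1.13 (adjusted p = 0.930). The log2 change of Dlk1, -0.02, turned to 0.075 after the trend was subtracted, so no direction is given for it.

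Grb10 and Cdkn1c are the growth-restraining members. Grb10 encodes an adaptor that binds the insulin and IGF1 receptors and dampens their signal. It had 51384 normalised counts in Inv1DelCTCF, against 57436 in Inv1, a fold of 0.895 (0.834 to 0.960) in the authors' deposited table, where its log2 change was -0.16 with an SE of 0.052 and an adjusted p of 0.0250. Its SE was smaller than that of almost all abundant genes, since only 0.728% of the genes with a mean of at least 2000 had a smaller SE. After subtraction of the GC and length trend Grb10 stood at -0.15 but no longer passed (adjusted p = 0.0903). Cdkn1c encodes p57, an inhibitor of cyclin-dependent kinases that takes cells out of the cycle. It had 13236 normalised counts in Inv1DelCTCF and 13989 in Inv1, and its fold was 0.946 in the authors' deposited table, with an interval of 0.835 to 1.07 (adjusted p = 0.616). Its log2 change of -0.08 turned to 0.10 after the trend was subtracted (adjusted p = 0.637), so no direction is given for Cdkn1c.

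**Figure D2:**
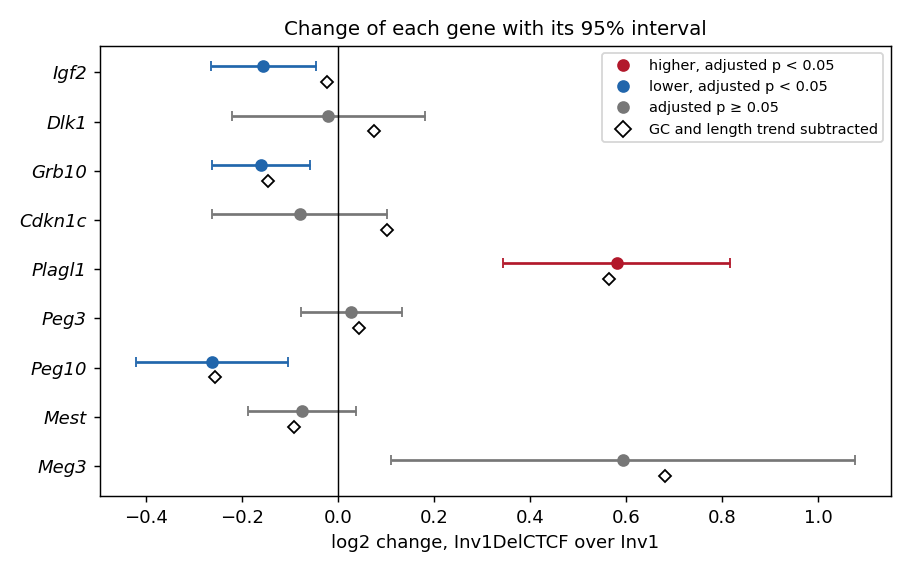
Log2 change of Inv1DelCTCF over Inv1 for the 9 genes with an adjusted p, with 95% intervals from the authors' SE, and as open diamonds the value after subtraction of the GC and length trend. Plagl1 alone was called higher, Igf2, Grb10 and Peg10 lower, and the diamonds of Igf2, Dlk1 and Cdkn1c lie farther right than their points.

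Plagl1 changed most among the called genes. It encodes a zinc finger transcription factor, also called Zac1, that is known in mouse to regulate other imprinted genes, Igf2 and Cdkn1c among them, and to slow proliferation. Its rebuilt level was 4911 normalised counts in Inv1DelCTCF, against 3286 in Inv1. The fold in the authors' deposited table was 1.49 with an interval of 1.27 to 1.76, its log2 change was 0.58 with an SE of 0.120, and its adjusted p was 0.000152. That absolute log2 change was larger than those of 99.8% of the genes with a mean of at least 2000. The call was kept at an adjusted p under 0.01 and after the trend was subtracted (log2 change 0.56, adjusted p = 0.000521). The related genes Plag1 and Plagl2, which are not imprinted in mouse as far as is known, stood in the authors' deposited table at log2 changes of 0.05 (adjusted p = 0.763) and -0.11 (adjusted p = 0.241). Peg3, the other zinc finger gene of the set, acts in mouse in fetal growth and maternal behaviour. It had 13709 normalised counts in Inv1DelCTCF and 13443 in Inv1, a fold of 1.02 with the narrow interval of 0.948 to 1.10 in the authors' deposited table (adjusted p = 0.783).

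Peg10 fell, and Mest was not called. Peg10 derives from a retrotransposon of the Ty3/gypsy type and is essential for the mouse placenta. It had 20305 normalised counts in Inv1DelCTCF, against 24348 in Inv1, which is a fold of 0.834 (0.747 to 0.931). The authors' deposited table gives it a log2 change of -0.26 with an SE of 0.081 and an adjusted p of 0.0188. Of the 3 called falls it was the only one that stayed called after the trend was subtracted (log2 change -0.26, adjusted p = 0.0467). Mest, also named Peg1, encodes a membrane protein with an alpha/beta hydrolase fold and is named for its expression in embryonic mesoderm. It had 32464 normalised counts in Inv1DelCTCF and 34181 in Inv1, and its fold of 0.950 came with an interval of 0.879 to 1.03 and an adjusted p of 0.423 in the authors' deposited table.

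Meg3 had the largest fold of the set without passing the test. Meg3 is a long noncoding RNA of the maternal allele, and its rebuilt level was 14359 normalised counts in Inv1DelCTCF, against 9522 in Inv1. In the authors' deposited table the fold was 1.51, with the wide interval of 1.08 to 2.11. Its log2 change there was 0.59 with an SE of 0.246, an unadjusted p of 0.0161 and an adjusted p of 0.0955. The SE of Meg3 was larger than that of 99.5% of the genes with a mean of at least 2000. It implies a spread between libraries of 0.27 on the log2 scale, against a median of 0.08 for those genes. At an adjusted p under 0.1 Meg3 was called higher.

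The imprinted growth genes differed widely from each other in this spread. Plagl1 had a larger SE than 97.8% of the genes with a mean of at least 2000, Cdkn1c than 90.1%, and Dlk1 lay between them. At the other end stood Grb10 with 0.728%, Peg3 with 1.73%, Igf2 with 3.64% and Mest with 6.18%, while Peg10 lay at 77.0%. Meg3 and Plagl1, with log2 changes of about the same size (0.59 and 0.58), fell on different sides of the threshold. The difference between Meg3 and Plagl1 was not tested.

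**Figure D3:**
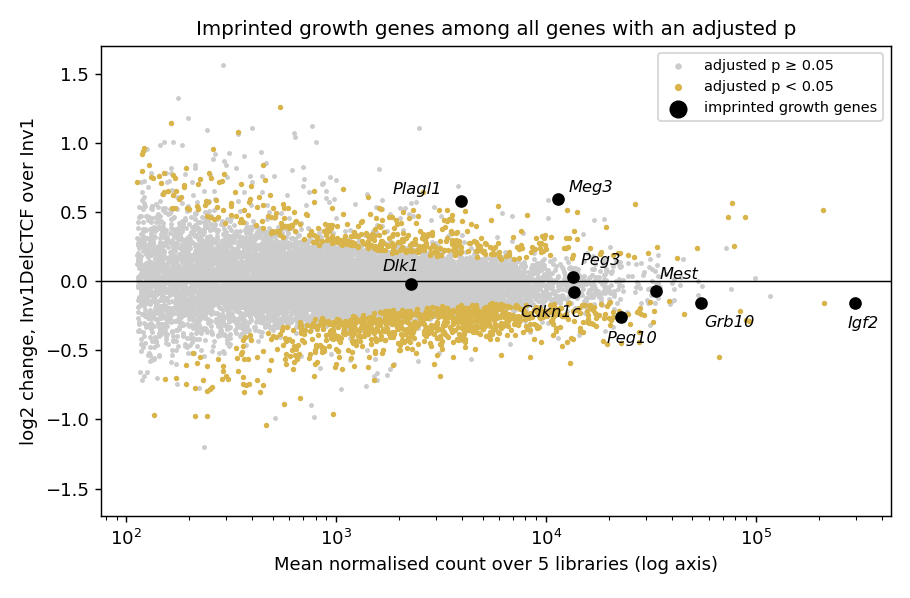
Log2 change of Inv1DelCTCF over Inv1 against the mean normalised count over 5 libraries on a log axis, for the 11218 genes with an adjusted p, those called in ochre and the 9 imprinted growth genes in black. Igf2 is the point farthest right, and Plagl1 and Meg3 lie near the upper edge for genes of their abundance.

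H19 was listed with a mean of 0. H19 is the maternally expressed noncoding RNA next to Igf2 and is known as abundant in embryonic mesoderm. Genes that every cell uses were also at or near 0 in this table, among them the ribosomal protein genes Rps23 and Rps4x at 0 and Tpt1 at 0.748 normalised counts, and 5 of 94 rows with ribosomal protein symbols were at 0. The entry of H19 is therefore given as listed at 0 and not as an absence of transcript. The microRNA gene Mir675, which lies inside H19, was listed at 0 as well, and Ins2, on the other side of Igf2, likewise. Mir483, a microRNA gene in an intron of Igf2, had an entry of its own in the authors' deposited table, with 91.2 normalised counts, a log2 change of -0.03, an SE of 0.266 and an empty adjusted p. Such entries count fragments over the hairpin in polyA RNA and do not measure the mature microRNAs. The mature sequences of these microRNA genes of H19 and Igf2 are printed from RefSeq (GRCm38.p6) to identify them, with the seed, bases 2 to 8, in capitals.
mmu-miR-675-5p, chr7:142577112-142577133, minus strand: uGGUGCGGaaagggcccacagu
mmu-miR-675-3p, chr7:142577078-142577099, minus strand: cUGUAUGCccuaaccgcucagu
mmu-miR-483-5p, chr7:142654968-142654989, minus strand: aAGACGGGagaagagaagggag
mmu-miR-483-3p, chr7:142654932-142654952, minus strand: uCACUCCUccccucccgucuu
No seed is shared among the 4. Mir335, inside Mest, had only 4.97 normalised counts, and the authors' deposited table gives it a log2 change of 1.86 with an SE of 1.06 and an empty adjusted p.

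In the Igf2 region the antisense RNA fell as Igf2 did. Igf2os, which overlaps Igf2, had 3476 normalised counts in Inv1DelCTCF, against 4116 in Inv1, and in the authors' deposited table its log2 change was -0.24 with an SE of 0.077 and an adjusted p of 0.0214. No source used here says that the counting used strand, so reads of Igf2 and Igf2os cannot be told apart where they overlap. Like Igf2, Igf2os did not pass after the trend was subtracted (log2 change -0.10, adjusted p = 0.573). Of the 5 genes of this region with an adjusted p, Igf2 and Igf2os were the 2 called, and both fell.

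In the Dlk1-Meg3 region the noncoding RNAs had similar values. Rian, which hosts small nucleolar RNAs, had 12830 normalised counts in Inv1DelCTCF, against 8554 in Inv1, and in the authors' deposited table its log2 change was 0.58 with a fold interval of 1.12 to 2.01 and an adjusted p of 0.0559. Mirg, which hosts microRNAs, had 620 normalised counts in Inv1DelCTCF and 473 in Inv1, a fold of 1.31 (1.07 to 1.61) with an adjusted p of 0.0710 in the authors' deposited table. Meg3, Rian and Mirg are all known as maternally expressed and neighbour each other. None of the 6 genes of this region with an adjusted p was called in the authors' DESeq2 test. Of these, 3, Meg3, Rian and Mirg, had an unadjusted p under 0.05, as had 26.1% of all genes tested. The paternally expressed Rtl1, with 60.2 normalised counts, had in the authors' deposited table a log2 change of -0.31 with an SE of 0.318 and an empty adjusted p. Whether Meg3 and Dlk1 differ in their change was not tested.

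**Figure D4:**
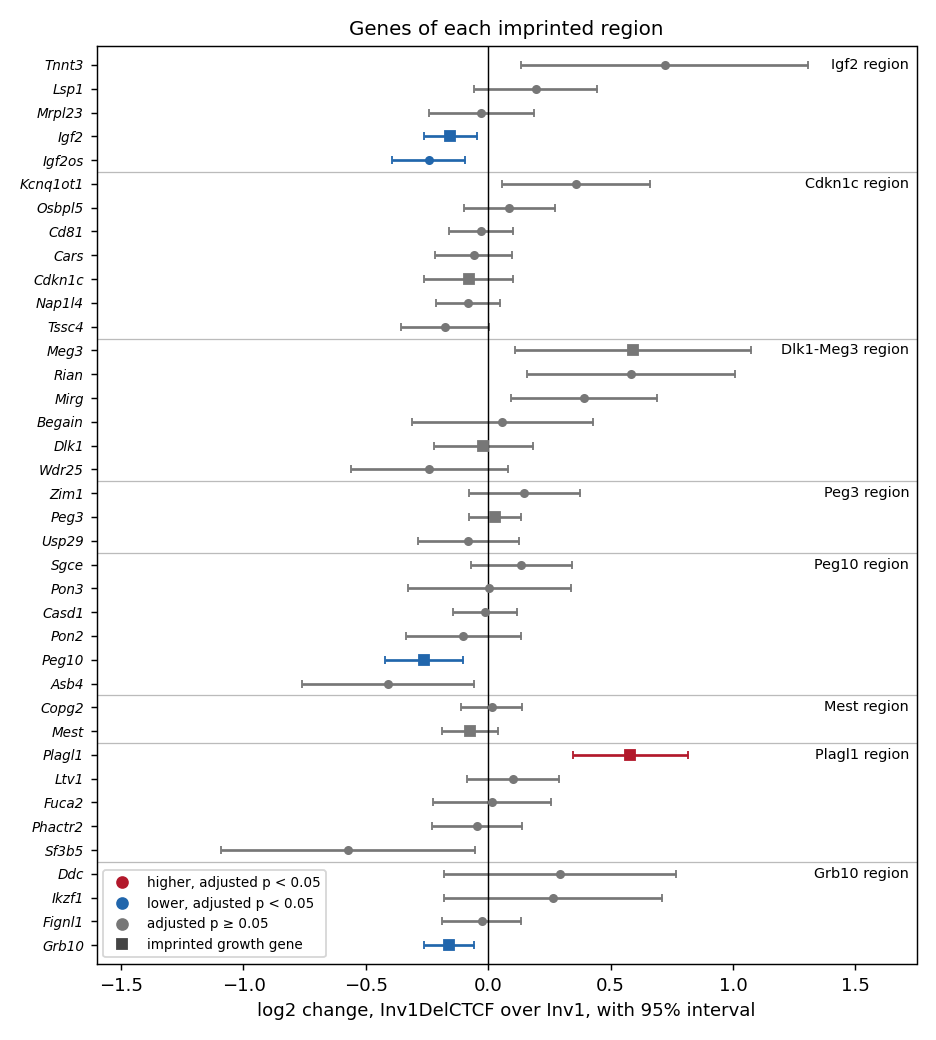
Log2 change of Inv1DelCTCF over Inv1 with 95% intervals for every gene with an adjusted p in the 8 regions of the imprinted growth genes, which are drawn as squares. Igf2os is the only gene beyond the set that was called, and Meg3, Rian and Mirg lie together at 0.39 to 0.59.

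In the remaining regions the neighbours were not called with the member. Around Cdkn1c, 0 of 7 genes with an adjusted p were called in the authors' DESeq2 test. Beside 26.1% of all genes tested, 1 of the 7 had an unadjusted p under 0.05. That gene was Kcnq1ot1, the paternally expressed noncoding RNA antisense to Kcnq1, with 541 normalised counts in Inv1DelCTCF, against 422 in Inv1; in the authors' deposited table its log2 change was 0.36 with an SE of 0.155 and an adjusted p of 0.111. It passed after the trend was subtracted (log2 change 0.67, adjusted p = 0.00212). Phlda2, a maternally expressed restrainer of placental growth, had only 29.5 normalised counts in Inv1DelCTCF, against 70.4 in Inv1, and the authors' deposited table gives a log2 change of -1.25 with an SE of 0.437, an unadjusted p of 0.00406 and an empty adjusted p. In the authors' deposited table Sgce, which shares a promoter region with Peg10, had a log2 change of 0.13 (adjusted p = 0.430), opposite in sign to the -0.26 of Peg10, and 0.015 after the trend was subtracted. Asb4, a further gene of the Peg10 region, had 9540 normalised counts in Inv1DelCTCF, against 12681 in Inv1, and the authors' deposited table gives it a log2 change of -0.41 with an unadjusted p of 0.0217 and an adjusted p of 0.114. The same authors' deposited table gives -0.08 for Usp29, which starts beside Peg3 (adjusted p = 0.659), and 0.01 for Copg2, which overlaps the end of Mest on the other strand (adjusted p = 0.920). In the Plagl1 and Grb10 regions the member was the single called gene of 5 and of 4.

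A wider list of other imprinted genes, some from the same regions, held no call. Of this list of 50 other imprinted genes, which leaves out Igf2os, 35 had an adjusted p and 0 passed in the authors' DESeq2 test. At an unadjusted p under 0.05, 6 had a higher and 2 a lower value in Inv1DelCTCF. Of all 11218 genes tested, 1123 had a higher and 1805 a lower value at that threshold, together 26.1%. The median log2 change of those 35 was 0.02, against -0.01 over all genes tested. After subtraction of the trend, 2 of them, Kcnq1ot1 and H13, passed as higher. Counted together with the 9 growth genes, 4 of 44 imprinted genes were called, beside 11.7% of all genes tested. Igf2os, called lower above, is not among the 44.

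Among the genes of IGF signalling, 4 of 20 with an adjusted p fell and 0 rose, beside the 7.89% and 3.81% of all genes tested. At a mean of at least 2000, which all 4 exceed, the shares were 14.0% and 4.82%. At an unadjusted p under 0.05, 1 of the 20 had a higher and 9 a lower value, beside 1123 and 1805 of all 11218 genes tested. Igf2bp1, which encodes a protein that binds Igf2 and H19 RNA, had 9969 normalised counts in Inv1DelCTCF, against 15006 in Inv1. Its fold of 0.664 (0.598 to 0.738) in the authors' deposited table had an adjusted p of 4.57e-11, and it still passed after the trend was subtracted (adjusted p = 4.18e-08). Its relatives Igf2bp2 and Igf2bp3 stood at log2 changes of -0.13 (adjusted p = 0.130) and 0.02 (adjusted p = 0.874) per the authors' deposited table. Igf1r, the receptor through which Igf2 mainly signals, had 7328 normalised counts in Inv1DelCTCF, against 9082 in Inv1, a fold of 0.807 (0.747 to 0.872) in the authors' deposited table (adjusted p = 1.21e-05, and 0.00313 after the trend was subtracted). Igf2r, which clears Igf2 and is itself imprinted, stands in the authors' deposited table at a log2 change of 0.13 with an SE of 0.075 (adjusted p = 0.241), and the insulin receptor gene Insr at 0.03 with an SE of 0.071 (adjusted p = 0.802). The signalling genes Irs1 and Akt1 fell by 0.25 and 0.23 on the log2 scale in the authors' deposited table (adjusted p = 0.0308 and 0.0140), and neither passed after the trend was subtracted (adjusted p = 0.248 and 0.835). The median over the 20 genes was -0.04.

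Cell cycle genes, the partners of Cdkn1c, held 2 calls, and Notch pathway genes, the background of Dlk1, held 4. All were falls, where 885 of the 1312 calls over all genes tested were falls too. Of 15 cyclin, CDK and inhibitor genes, 2 fell (13.3%) and 0 rose. Over all genes tested 7.89% were lower and 3.81% higher, and at a mean of at least 2000 the shares were 14.0% and 4.82%. The cell cycle share lay near that of abundant genes, so no more is read from it. At an unadjusted p under 0.05, 2 of the 15 had a higher and 4 a lower value, beside 1123 and 1805 of all 11218 genes tested. Cdk6, a kinase of the G1 phase, had 222 normalised counts in Inv1DelCTCF, against 362 in Inv1, and the authors' deposited table gives a log2 change of -0.71 with an SE of 0.190 (adjusted p = 0.00543). Cdk4, its close relative, had 22162 normalised counts in Inv1DelCTCF, against 26130 in Inv1 (log2 change -0.24 and adjusted p = 0.00186 in the authors' deposited table). Cdk6 passed after the trend was subtracted (adjusted p = 0.0148) and Cdk4 did not (0.102). Of 14 Notch genes with an adjusted p, 4 fell and 0 rose, beside the same shares. With an unadjusted p under 0.05, 0 had a higher and 6 a lower value, beside the same counts over all genes tested. In the authors' deposited table the receptors Notch1 and Notch3 fell by 0.33 and 0.31 on the log2 scale (adjusted p = 0.0397 and 0.0155), and the ligand Jag1 and the target Hey1 by 0.41 and 0.39 (adjusted p = 0.0160 and 0.00669). After the trend was subtracted none of these 4 passed, with adjusted p values of 0.0508 to 0.649.

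Genes tied to imprints or to DNA methylation moved in both directions. The list is not limited to imprint maintenance, since it also holds Dnmt3a, Dnmt3b and the Tet genes. Of 14 with an adjusted p, 3 rose and 4 fell, beside 3.81% higher and 7.89% lower over all genes tested. At a mean of at least 2000, which the called genes other than Dnmt3b exceed, the shares were 4.82% and 14.0%. The falls were those of Dnmt1, Uhrf1, Dnmt3b and Tet3. After subtraction of the trend 2 rose and 1 fell, where 3.66% of 10940 genes were called in either direction. Zfp57, which binds methylated imprinting control regions and protects them, had 4013 normalised counts in Inv1DelCTCF, against 3259 in Inv1, a fold of 1.23 (1.12 to 1.36) in the authors' deposited table (adjusted p = 0.00134, and 0.0161 after the trend was subtracted). Zfp445, which has a similar role, had a fold of 1.19 (1.09 to 1.29) in the authors' deposited table (adjusted p = 0.00164, and 0.0338 after the trend was subtracted). Tet3, an enzyme that oxidises methylcytosine, fell by 0.34 on the log2 scale in the authors' deposited table (adjusted p = 3.67e-05, and 0.0424 after the trend was subtracted). Uhrf1, which recruits the maintenance methyltransferase, fell by 0.36 in the authors' deposited table (adjusted p = 0.00184) and did not pass after the trend was subtracted (0.0540). DNA methylation itself was not measured in these files.

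**Figure D5:**
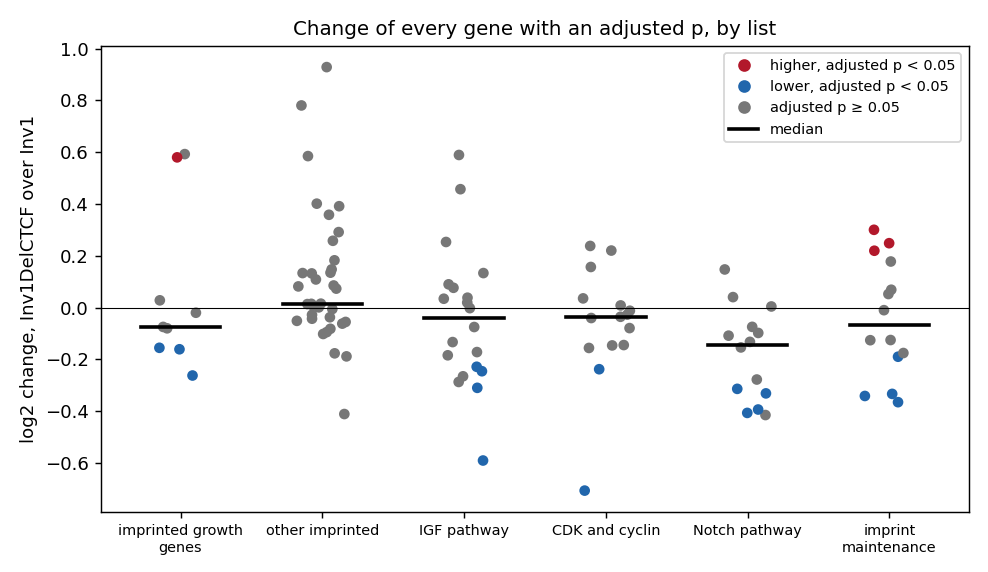
Log2 change of Inv1DelCTCF over Inv1 for each gene with an adjusted p, by list, with called genes coloured and the list's median as a bar. The imprinted growth genes hold 1 rise and 3 falls, and the list of other imprinted genes, without Igf2os, holds no call. The calls of the IGF, CDK and Notch lists are falls, as were 885 of the 1312 calls over all genes tested.

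Base composition and cell markers moved with the comparison. Log2 change and transcript GC content were inversely related across 10940 genes of these libraries (Spearman's rho -0.52, a description across genes that are not independent replicates). Median GC content was 43.6% for genes called higher and 55.6% for genes called lower, with 49.7% over all. Subtracting the trend left 220 genes called higher and 180 lower, where the deposited values gave 427 higher and 885 lower. The longest transcripts of Igf2 and Cdkn1c have 55.8% and 59.4% GC, and those of Plagl1, Peg10, Grb10 and Meg3 46.4%, 47.2%, 48.5% and 49.2%. The tissue label fits its markers, since the forelimb gene Tbx5 had 7273 and the distal limb gene Hoxd13 19242 normalised counts, against 642 for the hindlimb gene Tbx4. The marker counts below stand beside 7.89% lower and 3.81% higher over all genes tested. At a mean of at least 2000 these shares were 14.0% and 4.82%. Surface ectoderm markers summed to 11157 normalised counts in Inv1DelCTCF, against 13279 in Inv1, and 4 of 10 were called lower. Krt5, Krt8, Krt18 and Cdh1 fell by 0.30, 0.74, 0.56 and 0.39 on the log2 scale in the authors' deposited table. None of them passed after the trend was subtracted. Krt15, the 1 of the 10 with a positive log2 change, stood at 0.77 (unadjusted p = 0.0114, adjusted p = 0.0757 in the authors' Wald test). Limb mesenchyme markers summed to 96641 in Inv1DelCTCF and 99167 in Inv1, with 1 of 16 higher and 4 lower, the falls being those of Sall4 and Lhx2, which fell by 0.85 and 0.41 on the log2 scale in the authors' deposited table, and Hoxd12 and Hoxa13, which fell by 0.25 and 0.30. After the trend was subtracted only Sall4 of the called mesenchyme markers passed (adjusted p = 0.00408), and the others stood at 0.0634 to 0.241. Erythroid markers summed to 81890 in Inv1DelCTCF and 87104 in Inv1. The embryonic globin genes Hba-x and Hbb-bh1 were the 2 of 5 that fell. Both still passed as lower after the trend was subtracted (adjusted p = 0.0418 and 0.0312). The adult globin genes Hba-a1, Hba-a2, Hbb-b1 and Hbb-b2 were listed at 0. Endothelial markers summed to 8668 in Inv1DelCTCF and 9562 in Inv1, with Cdh5 the 1 of 8 that fell, though not after the trend was subtracted (adjusted p = 0.229). Cartilage markers summed to 40459 in Inv1DelCTCF and 35001 in Inv1, muscle markers to 4133 in Inv1DelCTCF and 3507 in Inv1, nerve markers to 1933 in Inv1DelCTCF and 1645 in Inv1 and macrophage markers to 1350 in Inv1DelCTCF and 1070 in Inv1, and 0 of their 6, 5, 3 and 3 genes with an adjusted p were called. At an unadjusted p under 0.05 there were 2, 0, 1 and 1, beside 26.1% of all genes tested. After the trend was subtracted the macrophage marker Csf1r passed as higher (log2 change 0.53, adjusted p = 0.0392). The cartilage, muscle and nerve markers still held 0 calls. The part of these shifts in the values of the imprinted growth genes was not tested.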

How the data were processed

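RNA was measured in 23 libraries, of which the 2 Inv1DelCTCF and 3 Inv1 forelimb libraries bear on these genes. Per the submitters' processing notes, STAR, DESeq2 and the mouse build mm9 were used, without versions. Per the file headers, each deposited table holds the authors' mean normalised count (a signal averaged over libraries), log2 fold change, the SE of that change in log2 units, the Wald score, the p-value and its adjusted form. Values per library are not in the tables used here, so depth is unknown, and the means of the table add up to 3.02e+07 normalised counts. Nothing in the labels ties libraries to litters, so every p measures only how these libraries vary.

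The headers do not name the numerator. Over 49 genes of the wild type and Inv1DelCTCF tables with a mean of at least 300, Inv1 levels rebuilt from both fits differed by a median of 0.0124 (log2) if positive means up in the mutants in the tables against wild type but up in Inv1 in the Inv1DelCTCF table, against 0.107, 0.117 and 0.132 under the other readings. For 46 of the 49 genes this sign of the Inv1DelCTCF table lay nearer than its reverse. The sign of that table was turned, so positive is higher in Inv1DelCTCF. Group levels follow from the mean and fold change, and the implied spread is the SE over the root of the summed reciprocal group sizes.

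Calls use the authors' adjusted p under 0.05, from their DESeq2 Wald test. Members and lists were chosen with earlier results of these data known. Named genes are the 10 members, up to 4 called genes per list with the smallest adjusted p, fixed neighbours, and the receptors. H13, Asb4, Igf2bp2, Igf2bp3, Plag1 and Plagl2 and the genes at 0 were named after their values were seen, as were Krt15, Csf1r, Pou5f1, Nanog and Zfp42. Transcript length and GC content came from GENCODE M21 (GRCm38, not the authors' build), found for 97.5% of the genes tested and 97.3% of those called. The trend was a cubic polynomial in GC content and in log2 length with their product added, fitted with weights from the SE. These steps were tested on simulated data. Alternatives covered thresholds, count minimums, adjustment, centring, the trend and genomic control. Tables were handled in pandas 2.3.3 under Python 3.11.15, statistics in SciPy 1.17.1, arrays in numpy 2.4.6, and plots in matplotlib 3.10.9.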

Additional observations from a re-analysis of the deposited data

How the results depend on the processing

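Of the 9 genes with an adjusted p, 4 were called, 1 higher and 3 lower in Inv1DelCTCF. At an adjusted p under 0.01, 1 was called and 0 of the falls, beside 5.13% of all genes, and at under 0.1 there were 2 called higher, Plagl1 and Meg3, and 3 lower, beside 17.4% of all genes in either direction. With an absolute log2 change of at least 0.5, 1 was called and 0 of the falls. After the GC and length trend was subtracted, 2 were called, Plagl1 higher and 1 fall, Peg10, while over all genes calls numbered 400 of 10940, against 1312 of 11218 as deposited. There the log2 changes of Cdkn1c (0.10) and Dlk1 (0.075) turned positive. With SE widened by a factor of 1.77, so that the median gene behaves as an unchanged one, 0 of the 9 were called (0 higher, 0 lower), 1 kept an unadjusted p under 0.05, and 12 of 11218 genes were called in all. Over every row with a p, 922 genes were called. The causes of these shifts were not tested. Plagl1 kept its call under 7 of 8 alternatives, Peg10 under 6, Grb10 under 5 and Igf2 under 2. Of these 8, an adjusted p under 0.1 cannot lose a call. The minimum mean of 100 nearly repeats the deposited filter, whose lowest mean was 113 normalised counts. Those were the 2 alternatives under which Igf2 kept its call. The log2 minimum of 0.5 was not among the 8, and under it only Plagl1 kept its call. The direction check gave residuals of 0.0165 and 0.0199 with means of at least 100 and 20. No paired analysis was possible because the tables hold no values per library, and for the same reason leaving out each replicate was not run.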
